A study of Mus musculus with 6 samples.

Results

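The G1/S and DNA replication genes are a set of 37 mouse genes that carry a cell from growth-phase commitment into copying of its DNA. They were chosen by symbol and found in the deposited gene count table through the GENCODE annotation. All 37 matched 1 identifier each among the 55450 genes of the table. All 37 were also among the 19549 genes that passed the low-count filter, and their lowest count in any library was 439. They were read in 3 mutant and 3 control poly(A) RNA-seq libraries of CD31-positive cells isolated from mouse brains at postnatal day 7 by the age label (a separate time label reads day 0). Mutant mice were Cdh5(PAC)-CreERT2; Rbpjflox/flox, with both alleles of Rbpj floxed. Control mice were Cdh5(PAC)-CreERT2; Rbpjflox/WT, with 1 floxed allele. In either genotype the transgene Cdh5(PAC)-CreERT2 makes a Cre recombinase that tamoxifen switches on, under control of regulatory DNA of Cdh5, which encodes the cadherin of endothelial junctions, and every pup was given 100 µg of tamoxifen on days 1 and 2. The mice had a mixed FVB/N and C57BL/6 background, both sexes were used, and cells of many mice were pooled per group. Whether each group's 3 libraries stem from separate pools is not stated in the labels, so the p-values reflect library-to-library spread only, and this spread may be technical.

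A dividing cell passes from G1 into S phase when D-type cyclins with Cdk4 or Cdk6, and then E-type cyclins with Cdk2, phosphorylate the retinoblastoma protein and free E2F transcription factors. E2F then raises transcription of the replication genes: the MCM helicase, its loading and activating factors, the polymerases and their clamp, and the enzymes that supply nucleotides. In the developing brain, endothelial cells of growing vessels divide, and Notch signalling through Rbpj, its DNA-binding partner, is known to restrain sprouting and to act on endothelial cell cycle arrest.

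Most of the 37 genes were not called, and those that were included G1 cyclins and a G1 kinase, helicase subunits and ribonucleotide reductase. Ccnd1, Mcm3, Mcm6, Rrm1, Rrm2 and Chaf1a were higher in mutant libraries and Ccnd2 and Cdk6 were lower. That is 6 higher and 2 lower of 37, or 16.2% and 5.41%. Of all genes tested, 7.56% were called higher and 6.83% lower, 14.4% in all (edgeR quasi-likelihood test, adjusted p under 0.05). The called changes were small. Their median absolute log2 fold change was 0.26, against 0.41 over all 2812 called genes, and it ranged from 0.16 for Rrm1 to 0.60 for Cdk6. The 37 genes also varied little between libraries, with a median SD of 4.48% of the mean in mutant and 5.13% in control libraries. Over all tested genes these were 9.55% and 8.95%. Smaller changes can be called where libraries vary less, and the part of this in both comparisons was not tested. Over the 37 genes the median log2 fold change was 0.07, and over all tested genes it was -0.01. A positive log2 fold change was found for 26 of the 37 genes (70.3%), against 48.5% of all tested genes. Mutant and control libraries did not overlap for 13 of the 37 genes (35.1%), close to the 34.1% of all tested genes. By direction, mutant libraries were the higher for 11 of the 37 and the lower for 2, against 16.8% and 17.3% of all tested genes. In RNA from bulk cell isolates fewer cells of a type and less RNA per cell cannot be told apart.

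**Figure D1:**
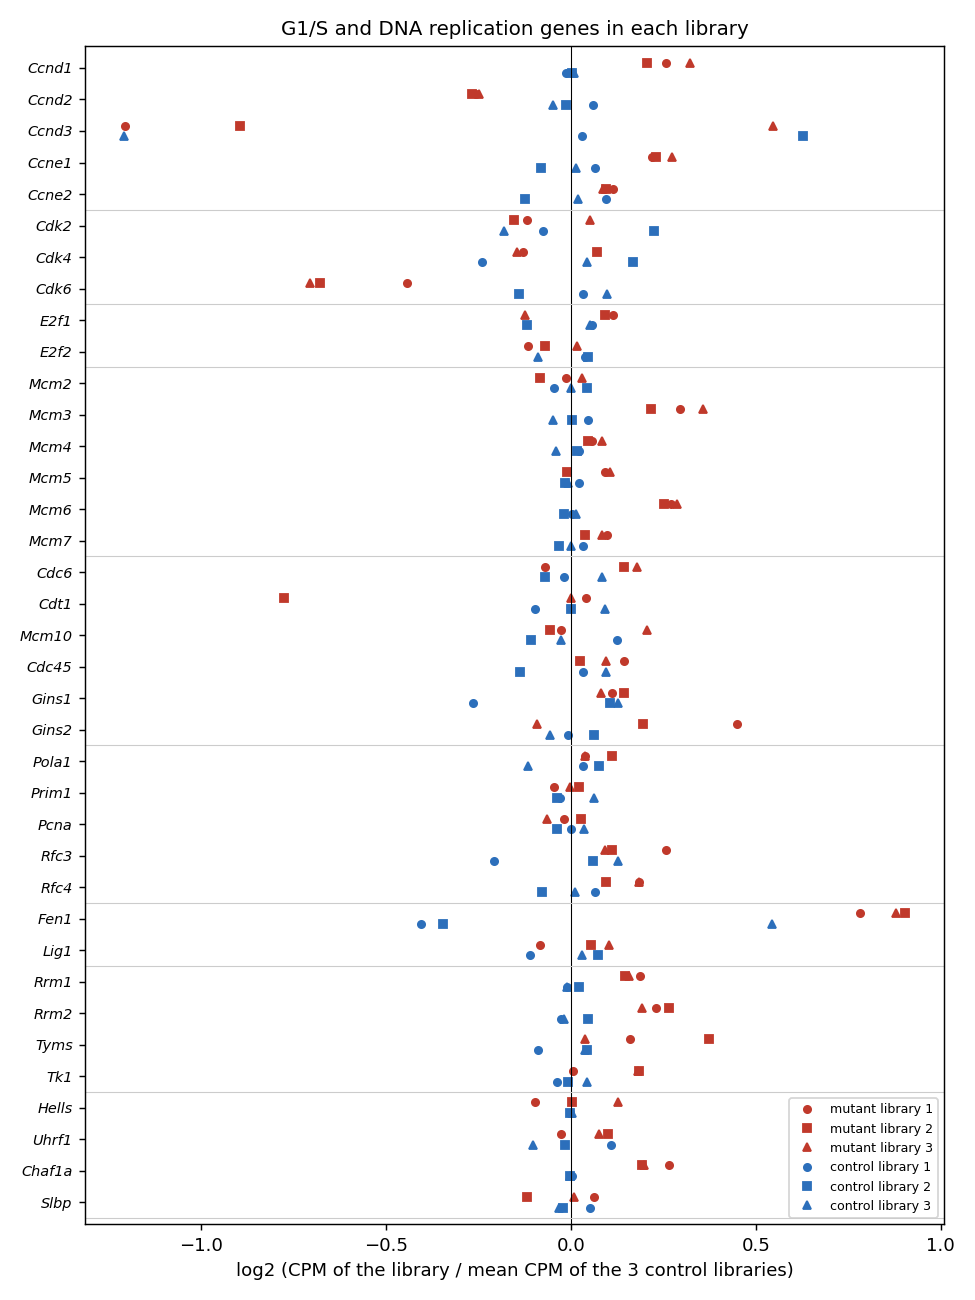
Expression of the 37 genes in each library, as log2 of CPM (counts scaled to a common library total with TMM factors) over the mean of the 3 control libraries, with mutant libraries (red) drawn just above control libraries (blue) in each row and grey lines between functional groups. Ccnd1, Mcm3, Mcm6, Rrm1, Rrm2 and Chaf1a have all mutant points right of all control points, Ccnd2 and Cdk6 have them left, and Ccnd3 is scattered in both groups.

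Total counts were 75744913 to 82092461 per library, and about 4 counts stood for 1 read pair. Mutant library 3 stood apart from mutant libraries 1 and 2 on the second principal component (-55.6, against 31.2 and 26.2), and without it 5 of the 37 genes were called higher and 2 lower. Rbpj had 47.9, 46.8 and 45.2 CPM in mutant libraries, against 54.3, 54.3 and 53.8 CPM in control libraries (log2 fold change -0.21 ± 0.042 SE, adjusted p = 0.0129). Since exons that Cre does not remove are also counted, this level checks the deletion only weakly, and the adjusted p was 0.0571 when control library 1 was left out, 0.0543 for control library 2 and 0.051 for mutant library 2. The endothelial markers were abundant in every library, with a summed level of 12380 to 13440 CPM over 10 genes in mutant libraries and 12270 to 12620 CPM in control libraries, and Pecam1 and Tie1 were called higher and Cdh5, Tek and Ly6c1 lower. Markers of other cells were present too and differed between the groups. The 6 microglia markers summed to 825 to 856 CPM in mutant libraries and 1061 to 1080 CPM in control libraries, and 4 of the 6 were called lower. The 6 erythroid markers summed to 4652 to 4951 CPM against 6980 to 7172 CPM, and 5 were called lower. The 6 astrocyte markers summed to 190 to 316 CPM against 400 to 448 CPM, and the 6 fibroblast markers to 357 to 495 CPM against 538 to 626 CPM, with 1 of each called lower. The 6 markers of neural progenitors and neurons summed to 925 to 960 CPM against 712 to 744 CPM. Of these Nes, which endothelial cells can also express, was called higher and Stmn2 lower. Nes alone had a mean of 681 of the 939 CPM in mutant and 504 of the 726 CPM in control libraries. The 8 markers of pericytes and smooth muscle summed to 3454 to 3578 CPM against 3303 to 3404 CPM, with 3 called higher and 3 lower. Kcnj8, Abcc9 and Cspg4 were higher (log2 fold changes 0.495, 0.516 and 0.193). The smooth muscle genes Acta2, Tagln and Myh11 were lower (-1.32, -1.17 and -1.02). The sum hides this, since Rgs5 alone had a mean of 2170 of the 3498 CPM in mutant and 2040 of the 3340 CPM in control libraries. The 6 lymphocyte markers summed to 10.2 to 12 CPM against 7.49 to 10.3 CPM, and edgeR called 0 of them (2 had an unadjusted p under 0.05). Such a p was common over all genes: ordered by edgeR p, an unadjusted p of 0.0434 stood only at rank 5018 of the 19549 tested genes. Replication genes are used by dividing cells of any type, and the part of these other cells in the results below was not tested.

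Promoter sequences are shown because E2F sites are the textbook switch of this gene set. RefSeq promoter windows (GRCm38, 250 bases before to 50 after the start) were found for 31 of the 37 genes. They were searched on both strands for the E2F motifs TTTCCCGC, TTTGGCGC, TTTCGCGC and TTTGCCGC and for the Rbpj motif GTGGGAA. An E2F motif was present for 13 of the 31 genes (41.9%), against 2.6% of 27025 genes with such a window. It was present for 2 of 5 genes called higher (Mcm3 and Mcm6), for 0 of 1 called lower (Cdk6) and for 11 of 25 not called. The Rbpj motif was present for 3 of 31 (9.68%: Mcm3, Fen1 and Rfc3), against 7.25% of all genes with a window. A match describes letters and not a site, and no match says only that these letters are not in the window. The windows of Rrm1, Rrm2 and Chaf1a, which were called higher too, held none of these motifs and are not printed. The windows of Mcm3 (chromosome 1 from 20820263 to 20820562, minus strand), Mcm6 (chromosome 1 from 128359656 to 128359955, minus strand) and Cdk6 (chromosome 5 from 3343643 to 3343942, plus strand) follow, 5′ to 3′, with matches to these motifs in capitals.
Mcm3: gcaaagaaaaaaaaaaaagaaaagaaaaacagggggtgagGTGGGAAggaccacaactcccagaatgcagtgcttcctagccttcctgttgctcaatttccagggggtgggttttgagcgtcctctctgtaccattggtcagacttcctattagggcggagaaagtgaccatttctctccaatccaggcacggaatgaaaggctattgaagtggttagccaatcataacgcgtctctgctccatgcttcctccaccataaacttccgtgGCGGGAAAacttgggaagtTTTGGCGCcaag
Mcm6: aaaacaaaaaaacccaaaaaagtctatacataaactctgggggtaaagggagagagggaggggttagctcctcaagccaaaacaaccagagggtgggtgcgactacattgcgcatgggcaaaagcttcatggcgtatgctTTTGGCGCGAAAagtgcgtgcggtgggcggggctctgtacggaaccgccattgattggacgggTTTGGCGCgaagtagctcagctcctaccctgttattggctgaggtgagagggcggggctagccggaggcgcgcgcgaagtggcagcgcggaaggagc
Cdk6: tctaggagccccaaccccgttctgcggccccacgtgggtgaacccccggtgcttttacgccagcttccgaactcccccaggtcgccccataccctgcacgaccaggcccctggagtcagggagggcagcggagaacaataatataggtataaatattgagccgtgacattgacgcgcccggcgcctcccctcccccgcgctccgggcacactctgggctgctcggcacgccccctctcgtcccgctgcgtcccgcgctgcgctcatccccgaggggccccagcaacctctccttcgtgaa
In Mcm3 the first run in capitals is the Rbpj motif and the other runs are E2F motifs just downstream of the start. In Mcm6 all runs are E2F motifs upstream of the start, and the first run holds a pair of overlapping motifs on opposite strands. The windows of Mcm5 and Mcm7 also held E2F motifs, and neither gene was called.

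D-type cyclins, which sense growth signals and activate Cdk4 and Cdk6, moved in opposite directions. Ccnd1 (ENSMUSG00000070348, chromosome 7 from 144929931 to 144939925, minus strand, GRCm38) had 655, 632 and 685 CPM in mutant libraries, against 543, 549 and 551 CPM in control libraries. All 3 mutant libraries were above all 3 control libraries, and the log2 fold change was 0.26 ± 0.036 (SE, adjusted p = 0.00274). Ccnd2 (chromosome 6 from 127125162 to 127152193, minus strand) had 174, 173 and 175 CPM in mutant libraries, against 217, 206 and 201 CPM in control libraries. The groups did not overlap, the mutant libraries were nearly equal, and the log2 fold change was -0.26 ± 0.038 (adjusted p = 0.00388). Both calls held under all 14 alternative settings, with adjusted p of 3.77e-06 to 0.0186 for Ccnd1 and 4.06e-05 to 0.0224 for Ccnd2.

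Per kilobase of exon, Ccnd1 had the highest level of all 37 genes in both groups, 140 ± 5.65 CPM per kb in mutant and 116 ± 0.941 CPM per kb in control libraries (SD, n = 3 each). The level per kb of Ccnd1 was 7.52, 7.30 and 7.81 times that of Ccnd2 in mutant libraries, against 4.99, 5.33 and 5.48 times in control libraries. Thus the ratio of these cyclins was 7.54 ± 0.255 in mutant and 5.27 ± 0.255 in control libraries, a difference that follows from the opposite calls of the 2 genes. Of the exon length of Ccnd1, 23.4% lies opposite exons of LTO1, which had 7.14 to 10.3 CPM in mutant and 9.01 to 12.2 CPM in control libraries. Exons of Ccnd2 lie opposite Gm43126, with a count of 0 in every library, and 9330179D12Rik, with at most 0.309 CPM in mutant and 0.391 CPM in control libraries. The sources used here do not give the strand setting of the counting.

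Ccnd3, the third D-type cyclin, had 51.4, 63.7 and 173 CPM in mutant libraries, against 121, 183 and 51.3 CPM in control libraries. High and low libraries occurred in both groups, with a 3.37-fold range within mutant and a 3.57-fold range within control libraries, the widest of the set. Its log2 fold change of -0.30 had an SE of 0.717, so no difference in Ccnd3 was detectable with these libraries (adjusted p = 0.851). The total of the D-type cyclins per kb was 169 ± 13.1 CPM per kb in mutant and 152 ± 7.51 CPM per kb in control libraries, and that sum carries the scatter of Ccnd3.

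**Figure D2:**
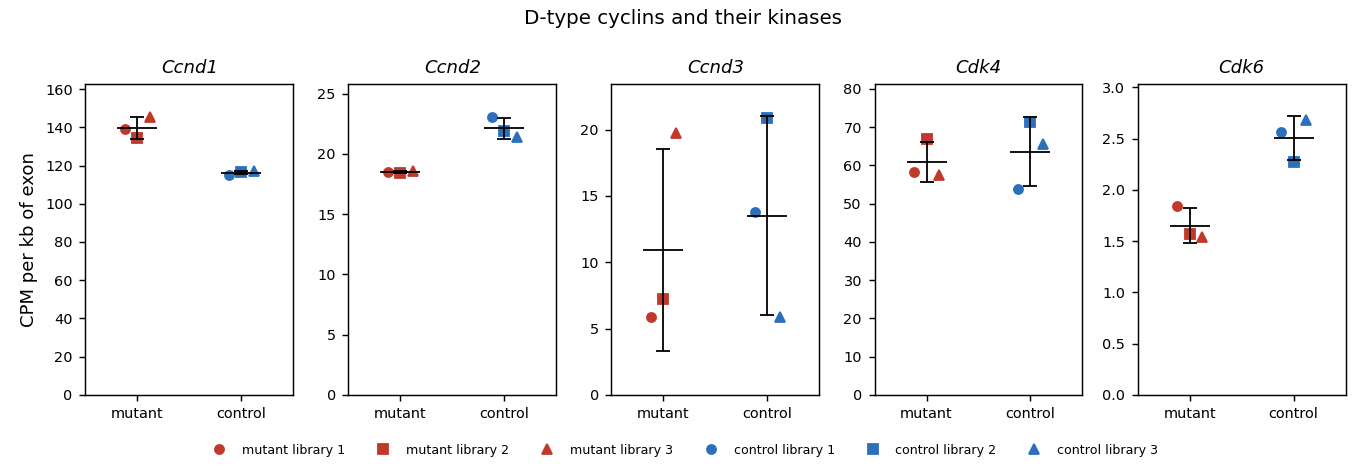
Levels of the D-type cyclin genes Ccnd1, Ccnd2 and Ccnd3 and of the kinase genes Cdk4 and Cdk6 in CPM per kb of exon, with mutant libraries left of control libraries. Points are libraries, the black line is the mean and the bar the SD of 3 libraries, and each axis starts at 0. Ccnd1 is higher and Ccnd2 and Cdk6 are lower in all mutant libraries, while Ccnd3 and Cdk4 overlap.

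E-type cyclins activate Cdk2 at the start of S phase and were not called. Ccne1 had 12.8, 12.9 and 13.3 CPM in mutant libraries, against 11.5, 10.4 and 11.1 CPM in control libraries. The libraries did not overlap, with a log2 fold change of 0.24 ± 0.075 and an adjusted p of 0.0771. DESeq2 and the stricter filter called it (adjusted p = 0.0388 and 0.047). Ccne2 had 15.5 ± 0.121 CPM in mutant and 14.5 ± 1.11 CPM in control libraries, and its libraries overlapped.

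Among the G1 kinases Cdk6 had the largest called change of the set. Cdk6 (ENSMUSG00000040274, chromosome 5 from 3341485 to 3531008, plus strand), a partner of D-type cyclins, had 25.8, 21.9 and 21.5 CPM in mutant libraries, against 35.9, 31.8 and 37.5 CPM in control libraries. The highest mutant library was below the lowest control library, and the log2 fold change was -0.60 ± 0.094 (adjusted p = 0.00479) and the call held in all 14 alternatives (adjusted p 8.12e-07 to 0.0245). Cdk4, the other partner of these cyclins, had 189, 217 and 187 CPM in mutant libraries, against 175, 232 and 213 CPM in control libraries. These overlapped, with a log2 fold change of -0.07 ± 0.118. Per kb Cdk4 was by far the more abundant of the pair, at 60.8 ± 5.12 CPM per kb in mutant and 63.6 ± 8.96 CPM per kb in control libraries, where Cdk6 had 1.65 ± 0.17 and 2.51 ± 0.21 CPM per kb. Of the summed level of the pair, Cdk6 made 2.66% ± 0.398 in mutant and 3.85% ± 0.733 in control libraries. Cdk2, the partner of E-type cyclins, had 27.1 ± 2.09 CPM in mutant and 28.5 ± 4.28 CPM in control libraries and was not called.

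The E2F activators E2f1 and E2f2, which switch on S-phase genes, were not called. E2f1 had 26.2, 25.8 and 22.2 CPM in mutant libraries, against 25.2, 22.3 and 25.1 CPM in control libraries (log2 fold change 0.03 ± 0.087). E2f2 had 22.1, 22.8 and 24.2 CPM in mutant libraries, against 24.6, 24.7 and 22.5 CPM in control libraries (-0.06 ± 0.067). Both groups overlapped for both genes.

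The MCM complex of Mcm2 to Mcm7 is the ring-shaped helicase that unwinds DNA at replication forks. Of its 6 subunit genes Mcm3 and Mcm6 were higher, and the other 4 were not called. Mcm6 (ENSMUSG00000026355, chromosome 1 from 128331590 to 128359664, minus strand) had 160, 158 and 162 CPM in mutant libraries, against 133, 131 and 134 CPM in control libraries. These groups were far apart next to their spread, with a log2 fold change of 0.27 ± 0.031 (adjusted p = 0.00123), the lowest p of the 37 genes. Mcm3 (ENSMUSG00000041859, chromosome 1 from 20802968 to 20820312, minus strand) had 112, 106 and 117 CPM in mutant libraries, against 94.2, 91.4 and 88.2 CPM in control libraries. All mutant libraries were again above all control libraries, with a log2 fold change of 0.29 ± 0.047 (adjusted p = 0.00563). Both genes were called in all 14 alternatives.

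Mcm2 had 101, 96.2 and 104 CPM in mutant libraries, against 98.7, 105 and 102 CPM in control libraries, which overlapped (log2 fold change -0.02 ± 0.043). Mcm4 and Mcm7 had mutant libraries just above control libraries, at 79.6 to 81.6 against 74.9 to 78.2 CPM and 84.9 to 88.4 against 80.8 to 84.5 CPM, and log2 fold changes of 0.06 ± 0.036 and 0.07 ± 0.037. Mcm5 had 97.8 to 106 CPM in mutant and 97.5 to 100 CPM in control libraries (0.06 ± 0.043). The 6 subunits act in equal number in the complex, but their levels per kb of annotated exon differed. Mcm6 was highest at 34.2 ± 0.417 in mutant and 28.5 ± 0.283 in control libraries, and Mcm2 lowest at 14.4 ± 0.563 and 14.7 ± 0.446 CPM per kb. The annotated exons span 6956 bases for Mcm2 and 4666 for Mcm6, and some may not be used in these cells. In CPM Mcm2 (mean 100 in mutant and 102 in control libraries) was above Mcm4 (80.5 and 77.0) and Mcm7 (87.0 and 82.6). The order and the shares that follow therefore depend on these lengths. Mcm3 made 20.3% ± 0.361 of the summed level per kb in mutant and 18.4% ± 0.451 in control libraries, and Mcm2 made 9.87% ± 0.11 and 11.1% ± 0.416. The summed level of the 6 genes was 146 ± 4.04 CPM per kb in mutant and 132 ± 1.53 CPM per kb in control libraries. Whether subunits differed from each other in their change was not tested.

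**Figure D3:**
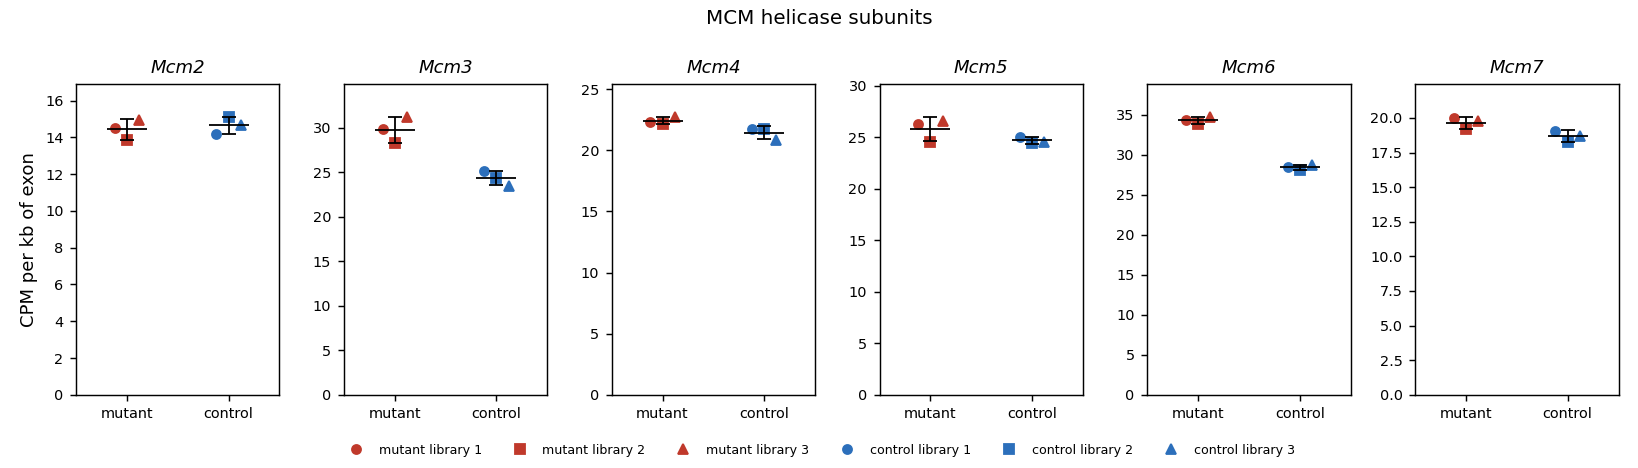
Levels of the 6 MCM helicase genes in CPM per kb of exon, with mutant libraries left of control libraries, points for libraries and a line and bar for the mean and SD of 3 libraries. Mcm3 and Mcm6 are set apart between the groups, Mcm4 and Mcm7 differ by less and were not called, and Mcm2 and Mcm5 overlap.

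The factors that load and activate the helicase were not called in any of 6 cases. Cdc6 and Cdt1 load the MCM ring on origins, and Mcm10, Cdc45 and the GINS subunits Gins1 and Gins2 turn it into a working helicase. Cdt1 had 22, 12.5 and 21.4 CPM in mutant libraries, against 20.0, 21.4 and 22.8 CPM in control libraries. Mutant library 2 alone was low, and without it the log2 fold change of Cdt1 was 0.03 in place of -0.20 ± 0.221. Gins2 had 46.8, 39.3 and 32.2 CPM in mutant libraries, against 34.1, 35.8 and 33.0 CPM in control libraries (0.20 ± 0.131). Over 67.3% of the exon length of Gins2 lies opposite exons of Gse1, which was lower in mutant libraries, at 33.0, 33.2 and 37.4 CPM against 48.4, 44.2 and 48.4 CPM (-0.44, adjusted p = 0.00444). The part of this overlap in the count of Gins2 was not tested. The other 4 genes had log2 fold changes of 0.05 (Mcm10) to 0.11 (Gins1) and overlapping libraries. Mcm10, at 9.86 ± 1.03 CPM in mutant and 9.55 ± 0.801 CPM in control libraries, had the lowest level per kb of the 37 genes in both groups.

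At the fork, Pola1 and Prim1 encode subunits of the polymerase alpha-primase that starts new strands, Pcna encodes the sliding clamp and Rfc3 and Rfc4 subunits of its loader. None of the 5 was called. Pcna had 157, 162 and 152 CPM in mutant libraries, against 159, 155 and 163 CPM in control libraries. Its mean level per kb of annotated exon ranked second in the set, with Cdk4 close to it (66.3 ± 1.76 and 63.6 ± 8.96 CPM per kb in control libraries). The mutant and control libraries of Pcna overlapped, with a log2 fold change of -0.02 ± 0.038 (adjusted p = 0.796). Prim1 had 17 ± 0.42 CPM in mutant and 17 ± 0.653 CPM in control libraries. Rfc4 had 15.0, 14.1 and 15.0 CPM in mutant libraries, against 13.8, 12.5 and 13.3 CPM in control libraries. These did not overlap, and the log2 fold change of 0.16 ± 0.075 was not called (adjusted p = 0.234). Of the exon length of Rfc4, 12.65% lies opposite exons of Eif4a2. That gene had 38.3, 34.5 and 37.9 CPM in mutant libraries, against 48.4, 56.7 and 50.0 CPM in control libraries (-0.49, adjusted p = 0.00428). The part of this overlap in the count of Rfc4 was not tested. Pola1 and Rfc3 had log2 fold changes of 0.07 and 0.16.

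Fen1, the nuclease that trims Okazaki fragments on the lagging strand, had the highest log2 fold change of the set, 0.86 ± 0.288, without being called (adjusted p = 0.137). It had 38.7, 42.1 and 41.4 CPM in mutant libraries, against 17, 17.7 and 32.8 CPM in control libraries. The mutant libraries were close together and above all control libraries, while control library 3 was well above the other control libraries (1.93-fold from lowest to highest). Without control library 3 the log2 fold change of Fen1 was 1.23 and the adjusted p 0.000222. DESeq2 and limma-voom also called it with all libraries (adjusted p = 0.00123 and 0.0399). Over 78.8% of its exon length Fen1 lies opposite the antisense gene Gm10143, which had at most 0.256 CPM in mutant and 0.202 CPM in control libraries. A stretch of 5.37% lies opposite exons of Tmem258, which had 49.8 to 53.0 CPM in mutant and 43.2 to 49.6 CPM in control libraries, above Fen1 itself, and its part in the count of Fen1 was not tested. Lig1, the ligase that seals the fragments, had 58.8, 64.7 and 66.9 CPM in mutant libraries, against 57.7, 65.6 and 63.6 CPM in control libraries, and was not called.

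Genes of nucleotide supply had positive log2 fold changes in 4 of 4 cases, and both subunits of ribonucleotide reductase, the enzyme that makes deoxyribonucleotides, were higher. Rrm2, its S-phase subunit (ENSMUSG00000020649, chromosome 12 from 24708241 to 24714146, plus strand), had 66.3, 68.0 and 64.7 CPM in mutant libraries, against 55.5, 58.4 and 55.8 CPM in control libraries. The groups did not overlap (log2 fold change 0.23 ± 0.042, adjusted p = 0.00951), and the call held in all 14 alternatives. Rrm1, the large subunit (chromosome 7 from 102441695 to 102469771, plus strand), had 149, 145 and 146 CPM in mutant libraries, against 130, 133 and 130 CPM in control libraries. They did not overlap either (0.16 ± 0.032, adjusted p = 0.0144), but the adjusted p of Rrm1 was 0.0589 without control library 1 and 0.0572 without mutant library 1. Tyms, which makes thymidylate, had 34.7, 40.2 and 31.9 CPM in mutant libraries, against 29.2, 32.0 and 31.9 CPM in control libraries (0.20 ± 0.091), and the thymidine kinase gene Tk1 had 30.4, 34.4 and 34.3 CPM against 29.5, 30.1 and 31.2 CPM (0.13 ± 0.064). Neither was called, and both overlapped between groups.

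Chaf1a, the large subunit of the chromatin assembly factor that places histones on new DNA, was the only called gene of 4 that serve chromatin and histone supply. It had 30.7, 29.2 and 29.3 CPM in mutant libraries, against 25.6, 25.5 and 25.5 CPM in control libraries (log2 fold change 0.22 ± 0.051, adjusted p = 0.029; chromosome 17 from 56040439 to 56072289, plus strand). The groups were apart, yet with any 1 of the 6 libraries left out the adjusted p of Chaf1a was 0.0512 to 0.101. Of its exon length 52.5% lies opposite exons of Ubxn6, which had 51.3 to 58.3 CPM in mutant and 47.4 to 62.5 CPM in control libraries. Hells, a chromatin remodeller, had 22.3 ± 1.79 CPM in mutant and 22.1 ± 0.0815 CPM in control libraries. Uhrf1, which guides DNA methylation to new strands, had 74.2 ± 3.48 and 71.7 ± 5.29 CPM, and Slbp, which binds histone mRNA, 25.7 ± 1.67 and 26.0 ± 0.794 CPM. These 3 were not called.

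**Figure D4:**
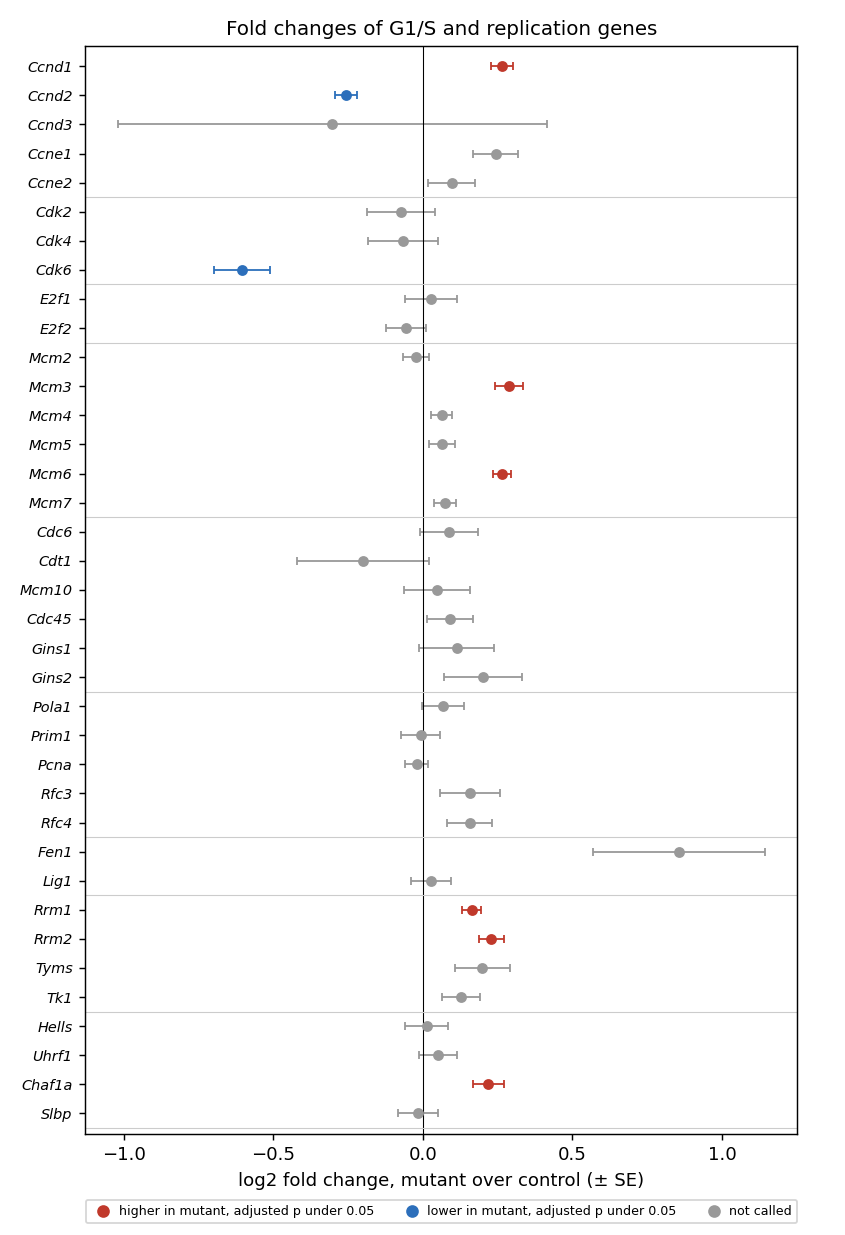
Log2 fold change of each gene, mutant over control, with its SE, ordered by role and split by grey lines. Red points were called higher, blue points lower and grey points not called; Fen1 and Ccnd3 have the widest errors beside Cdt1.

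Among themselves the 37 genes spread over a wide range of levels, 1.28 to 140 CPM per kb in mutant libraries for Mcm10 and Ccnd1. Replicates were close for most: the median SE of a log2 fold change was 0.07, and 3 genes, Ccnd3, Fen1 and Cdt1, had an SE over 0.2. Of the 29 uncalled genes 20 had a positive and 9 a negative log2 fold change, and 19 were smaller than 0.1 in size. By library, 26 of the 37 genes had their highest value in a mutant library and 11 in a control library, and 25 had their lowest value in a control library. This was not counted over all tested genes, and it largely restates the signs of the fold changes. The highest value fell in mutant library 3 for 11 genes, mutant library 1 for 9 and mutant library 2 for 6. Exons of 16 of the 37 genes, 4 of the 8 called ones among them, overlap exons of a gene on the other strand. Copies of at least 95% identity over 200 bases were annotated elsewhere for some, of which Pcna-ps2 (a mean count of 131.8, against 12559.8 for Pcna), Gm5487 (40.2, against 6736.5 for Mcm7) and Gm5648 (40.8, against 5789.3 for Uhrf1) had few counts. Tyms and Slbp share repeats with expressed genes (Reep3 and Gas2l3, among others), so their counts are uncertain. For the called Rrm2 and Cdk6 such copies had mean counts of 4.2 and 2.2.

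Related cell cycle genes were read in 4 further lists. Other replication machinery genes were rarely called, with 2 of 40 higher and 0 lower (5.0%, against 14.4% of all tested genes) and a median log2 fold change of 0.04. With no adjustment 8 of the 40 had a p under 0.05, and DESeq2 called 4 higher and 0 lower. These counts show no excess by themselves, since an unadjusted edgeR p of 0.0434 stood at rank 5018 of the 19549 tested genes. The share of all genes that DESeq2 called is not given here. Dbf4, the activator of the origin-firing kinase Cdc7, had 32.9, 28.0 and 31.7 CPM in mutant libraries, against 22.1, 22.8 and 25.7 CPM in control libraries (0.39 ± 0.087, adjusted p = 0.0229). Timeless, a fork protection gene, had 22.7, 24.1 and 23.1 CPM against 19.7, 19.8 and 19.1 CPM (0.25 ± 0.058, adjusted p = 0.0268). Neither call was stable: without control library 1 or 2 or without mutant library 1 or 3, 0 of the 40 were called higher. Chaf1b, the partner of Chaf1a, had 24.6, 25.0 and 23.6 CPM in mutant libraries, against 19.8, 22.7 and 20.5 CPM in control libraries, which did not overlap but were not called (0.22 ± 0.072, adjusted p = 0.0917). Gins3, Gins4 and Pola2, further subunits of complexes in the set of 37, were not called, with log2 fold changes of -0.05, -0.01 and -0.04. Prim2, Rfc1, Rfc2 and Rfc5, also subunits of such complexes, were not called either (0.055, 0.065, 0.019 and 0.01).

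Of 18 further E2F family, pocket protein and G1/S regulator genes, 2 were higher and 0 lower (11.1%, against 14.4% of all tested genes). Their median log2 fold change was 0.04. Of the 18, 3 had an unadjusted p under 0.05, which was common over all genes, and DESeq2 called 2 higher and 0 lower. Mycn, a Myc-family transcription factor that drives growth and cell cycle entry, had 33.8, 29.5 and 29.1 CPM in mutant libraries, against 17, 18.4 and 17.3 CPM in control libraries. Every mutant library was well above every control library (log2 fold change 0.81 ± 0.077, adjusted p = 0.000434). Cdc25a, the phosphatase that activates Cdk2, had 36.9, 37.7 and 37.1 CPM in mutant libraries, against 29.5, 31.7 and 31.9 CPM in control libraries (0.26 ± 0.052, adjusted p = 0.0141). Ccna2, the cyclin of S and G2 phase, had 107, 104 and 101 CPM in mutant libraries, against 102, 102 and 103 CPM in control libraries, and was not called. The retinoblastoma gene Rb1, at 42.1 to 45.1 CPM in mutant and 40.7 to 42.6 CPM in control libraries, was not called.

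Inhibitors of cyclin-dependent kinases were called in 3 of 7 cases (42.9%, against 14.4% of all tested genes). Of these Cdkn1a was higher and Cdkn1c and Cdkn2b were lower, and the median log2 fold change of the 7 was -0.50. Cdkn1a, which encodes p21, had 535, 534 and 543 CPM in mutant libraries, against 316, 318 and 343 CPM in control libraries (0.72 ± 0.039, adjusted p = 3.46e-05). Cdkn2b, an inhibitor of Cdk4 and Cdk6, had 9.21, 9.90 and 9.65 CPM against 25.9, 25.5 and 25.8 CPM (-1.42 ± 0.064, adjusted p = 1.62e-05). Cdkn1c had 44.8, 45.9 and 46.6 CPM against 65.7, 62.2 and 66.7 CPM (-0.50 ± 0.044, adjusted p = 0.000315). For all 3 the spread within a group was small next to the gap between groups. Cdkn1b, which encodes p27, had 55.4, 55.3 and 84.9 CPM in mutant libraries, against 50.3, 50.3 and 47.6 CPM in control libraries, and was not called (0.40 ± 0.187, adjusted p = 0.257). Cdkn2d had 5.58, 20.7 and 13.9 CPM against 24.9, 24.4 and 27.7 CPM and was not called (-0.94 ± 0.491, adjusted p = 0.319). For both Cdkn1b and Cdkn2d the groups did not overlap. Cdkn2a, at most 0.45 CPM in any library, and Cdkn2c were not called either (-0.89 ± 1.097 and 0.03 ± 0.06).

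Of 25 genes of the later G2 and M phases, 7 rose in mutant libraries and 0 fell (28.0%, against 14.4% of all tested genes called, 7.56% higher), with a median log2 fold change of 0.15. Cenpe, a kinetochore motor, had 27.0, 24.9 and 25.1 CPM in mutant libraries, against 19.4, 20.3 and 17.9 CPM in control libraries (0.42 ± 0.071, adjusted p = 0.00723). Mki67, the gene of the proliferation antigen Ki-67, had 142, 138 and 142 CPM against 123, 116 and 108 CPM (0.29 ± 0.052, adjusted p = 0.00992). Ndc80, a kinetochore gene, had 17.2, 16.2 and 16.5 CPM against 13.4, 13.7 and 14.1 CPM (0.28 ± 0.066, adjusted p = 0.0305). With no adjustment 12 of the 25 had a p under 0.05, and DESeq2 called 8 higher and 0 lower. Over all 19549 tested genes an unadjusted edgeR p of 0.0434 stood at rank 5018, and the share that DESeq2 called is not given here. With 1 library left out, 3 to 5 of the 25 genes were called. The difference between these lists was not tested.

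**Figure D5:**
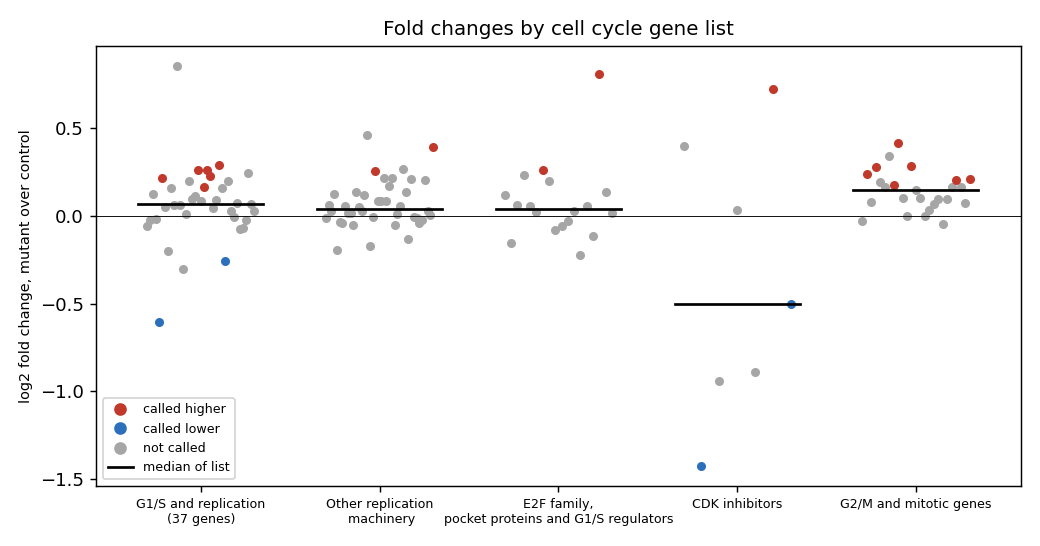
Log2 fold change, mutant over control, of each tested gene in the set of 37 and in 4 related lists, with the list median as a black line and called genes in red (higher) or blue (lower). Most replication genes lie near 0, Mycn and Cdkn1a stand highest in their lists, and Cdkn2b stands lowest.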

How the data were processed

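RNA was measured by stranded poly(A) sequencing in 3 mutant and 3 control libraries. The authors deposited estimated counts per gene, whole numbers that are not normalized; the strand setting of the counting is not given in the sources at hand. Per the submitters' processing notes, the tools were StringTie 1.3.4, HISAT2, edgeR, cutadapt 1.10 and FastQC 0.10.1, and the build named is GRCm39. All 55450 identifiers matched GENCODE release M21, so symbols, exon lengths and coordinates are given on GRCm38. Per the file headers, another deposited table holds valid reads as a count for each library (50226902 to 53986268). Total counts were 1.51 to 1.53 times the valid reads, and low counts piled up at multiples of 4 (1118 to 1190 genes at 4, against 171 to 189 at 5), so precision follows read pairs, about 1 for 4 counts. Any 2 libraries within a group had counts further apart than sampling noise gives (median chi-square 1.82 to 2.65 times its expectation, after division by 4), and each was kept as 1 replicate.

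Genes were kept with filterByExpr (19549), scaled by TMM and tested with edgeR 4.0.16 by its quasi-likelihood F test (R 4.3.3, robust fitting, group as the only term), with Benjamini-Hochberg adjustment over all genes tested. Planned for rounded expected counts, the test needed no rounding. Called means an adjusted p under 0.05. Each SE is the absolute log2 fold change divided by the root of the F statistic. CPM used TMM scaling, and CPM per kb divided it by the union of annotated exons, which may hold exons not used in these cells. Alternatives were RLE factors, library size only, no filter, a stricter filter (5 CPM in 3 libraries), counts divided by 4, DESeq2 1.42.0, limma-voom (limma 3.58.1), the replicate number as a block and each library left out. The members and lists were chosen with earlier results of these data known. All 37 members are described. From each related list, up to 3 called genes per direction with the largest log2 fold change are described. Chosen after their values were seen were Rb1, Cdkn1b, Cdkn2a, Cdkn2c, Cdkn2d, Ccna2, Gse1, Eif4a2 and Rgs5. So were the subunit genes Chaf1b, Gins3, Gins4, Pola2, Prim2, Rfc1, Rfc2 and Rfc5. Protein sequences were not used here. The marker list of the oligodendrocyte lineage is not reported here.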

Additional observations from a re-analysis of the deposited data

How the results depend on the processing

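Of the 8 called genes, Ccnd1, Ccnd2, Cdk6, Mcm3, Mcm6 and Rrm2 kept their direction and their call under all 14 alternatives. Rrm1 lost its call in 3 of them (adjusted p = 0.0589 without control library 1, 0.0572 without mutant library 1 and 0.0639 with the replicate block), and Chaf1a in 7 (0.0889 with the block and 0.0512 to 0.101 with a library left out). Between 4 and 8 of the 37 genes were called higher and 2 lower in every alternative. With the replicate block 1106 genes were called higher and 953 lower, with 4 and 2 of the 37 and 1 and 0 of the 40 other replication genes. Replicate numbers did not pair the libraries, since deviations of same-numbered libraries correlated by -0.0233, 0.00969 and 0.0233, and library 1 of the mutant group correlated best with control library 2 (0.0299). Leaving out 1 library gave 1100 to 1270 higher and 807 to 1125 lower genes; of these, lower genes numbered 807 when control library 1 was left out, 861 for control library 2 and 865 for mutant library 2. Other replication genes called higher numbered 0 to 2 with a library left out and 4 with DESeq2, and 1 was called lower with the stricter filter (0 otherwise). The cause was not tested. For 12 genes, none of them called, the sign changed when 1 library was left out, with log2 fold changes over these fits as follows: Ccnd3 -1.03 to 0.17, Cdk2 -0.16 to 0.06, Cdk4 -0.17 to 0.03, Cdt1 -0.33 to 0.03, E2f1 -0.02 to 0.11, Hells -0.04 to 0.07, Lig1 -0.02 to 0.08, Mcm10 -0.04 to 0.12, Mcm2 -0.04 to 0.02, Pcna -0.04 to 0.01, Prim1 -0.02 to 0.02, Slbp -0.06 to 0.04. Counts behind low genes such as Gins1 and Mcm10 stand for fewer read pairs than counts, which limits small differences.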
